A study of Mus musculus with 6 samples.

Results

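Wnt ligands are the secreted glycoproteins that start Wnt signaling, and 10 of the 24421 gene symbols in the count table were followed here: Wnt2, Wnt2b, Wnt4, Wnt5a, Wnt5b, Wnt6, Wnt7a, Wnt7b, Wnt9a and Wnt11. They were picked by symbol, with earlier results of these data known. All 10 passed the filter on low counts, which kept 15988 genes for testing, and this is not read as a result. The other 9 Wnt ligand genes of the mouse were followed only by their counts, and 3 of them passed the filter.

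RNA was sequenced from cochlear explants, whole pieces of the mouse inner ear kept in culture, which were labelled wild type (WT) and taken at postnatal day 2. The control group and the neomycin group held 3 samples each, and every sample pooled 6 to 8 cochleae. Neomycin is an aminoglycoside antibiotic that kills hair cells (HCs), the sensory cells of the cochlea. The protocol gave it at 1 mM over 6 h, after a first 12 h in culture. A further 5 days with the thymidine analog EdU at 10 μM followed. The treatment labels separate control from neomycin, although 1 protocol text that includes neomycin accompanies all 6 samples, and control is taken here as explants without it. Both groups shared the culture and EdU, and per the study's methods the stria vascularis anlage, the modiolus and the tectorial membrane had been removed. Nothing in the labels says that the pools of a group were cultured separately, so p-values measure only the spread between these pools.

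Each Wnt protein carries a lipid, attached by the acyltransferase Porcupine in the endoplasmic reticulum, and travels to the cell surface with the carrier Wntless. Outside the cell it binds a Frizzled receptor. With the co-receptors LRP5 and LRP6 this stabilizes β-catenin, and with others such as ROR2 or RYK it signals through planar cell polarity, which orients cells within an epithelium. In the neonatal cochlea, β-catenin signaling drives division of Lgr5+ supporting cells (SCs), the cells that surround HCs, and planar polarity signaling orients the hair bundles.

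The lipid sits on a serine within a short protein pattern that was found in each of these ligands, and the coding sequence of this stretch is shown for each. The sequences were read from the GENCODE M21 transcripts, 5′ to 3′, with the serine codon in capitals.
Wnt2: tgtcatggtgtgAGTggctcctgt
Wnt2b: tgtcacggtgtgAGTggctcctgt
Wnt4: tgtcacggggtgTCGggctcctgc
Wnt5a: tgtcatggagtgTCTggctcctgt
Wnt5b: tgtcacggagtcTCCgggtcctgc
Wnt6: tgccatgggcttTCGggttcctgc
Wnt7a: tgccatggtgtgTCAggctcctgt
Wnt7b: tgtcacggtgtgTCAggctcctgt
Wnt9a: tgccatggtgtgTCTggctcctgc
Wnt11: tgccatggggtgTCTggctcctgc
The protein pattern coded by these 24 bases occurred once in each ligand. Its serine stood at codons 206 in Wnt7a to 244 in Wnt5a, counted from the start codon. The paralogues Wnt2 and Wnt2b share the codon AGT, Wnt7a and Wnt7b share TCA, and Wnt5a and Wnt5b have different serine codons. Even in the most alike pair, Wnt5a and Wnt5b, the coding sequences were 75.5% identical, and the longest run shared by their transcripts was 29 bases. Wnt7a and Wnt7b were 74.9% identical with a longest shared run of 23 bases, and Wnt2 and Wnt2b 62.8% with 24 bases.

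Total counts per sample lay between 50471116 and 66068108. Pairs of libraries within a group stood further apart than counting noise (mean chi-square of a gene 13.7 to 46.7). This does not tell whether the pools were cultured separately. Each library was counted as its own replicate. Called here means an adjusted p under 0.05 in the edgeR test described below, with a fold change over 1.5. Of all tested genes, 2.24% were called higher and 6.60% lower. The HC markers fell with treatment, with 14 of 16 called lower. Their summed level was 845 to 973 CPM (reads scaled to a library size of 1000000) in control and 262 to 326 CPM after neomycin. The 14 SC markers summed to 2490 to 2725 CPM and 2473 to 3004 CPM, with 3 called lower. At an adjusted p under 0.05 with any fold, 6 of them were lower and 1 higher. Of the other markers, 7 of 9 for endothelium and 4 of 10 for neurons were called lower, 3 of 10 for macrophages were called higher, 1 of 11 for mesenchyme was called in each direction, and 0 of 8 for Schwann cells and 0 of 6 for melanocytes and stria were called. Of those last lists, 1 gene each was lower at an adjusted p under 0.05 (also 1 at an unadjusted p under 0.05), and DESeq2 called 0. The macrophage markers summed to 179 to 231 CPM in control and 247 to 297 CPM after neomycin. In the list of erythroid genes, the globin genes Hba-a1, Hba-a2, Hbb-bs and Hbb-bt stood at 0 in every sample. How reads that map to several genes were counted is not given, so this is not read as absence. The list summed to 0.213 to 0.319 CPM in control and 0.0565 to 0.169 CPM after neomycin. Its 1 tested gene had a log2 fold change of -1.35 and was not called. In such bulk samples, fewer cells of a type and less RNA per cell cannot be told apart. The part of these shifts in the values of the Wnt ligands was not tested.

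The control explants contained a few abundant Wnt transcripts and several scarce ones. Levels of different genes were compared as CPM per kb of exon. Wnt7b, a ligand known from lung growth and brain vessel development, stood highest in control at 38.1 ± 1.35 CPM per kb (SD, n = 3). Next came Wnt5a, the best known ligand of planar polarity, at 24.6 ± 1.77 CPM per kb, and Wnt7a, a ligand of limb and uterine patterning, at 24.3 ± 1.40 CPM per kb, and these neighbours differed by less than their spread. Wnt4, which is required for the formation of kidney tubules, at 15.5 ± 1.74 CPM per kb and Wnt9a, a ligand of joint formation, at 15.2 ± 0.933 CPM per kb also differed by less than their spread. Wnt5b followed at 9.11 ± 0.312 CPM per kb.

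A gap then separated the abundant from the scarce ligands. The level of Wnt5b was 6.76 times that of Wnt2b, the next in order, which stood at 1.35 ± 0.129 CPM per kb. Wnt11, a ligand of branching in the kidney and of cell movement in gastrulation, stood at 0.877 ± 0.0677 CPM per kb and Wnt2, which acts with Wnt2b in lung specification, at 0.444 ± 0.123 CPM per kb. Wnt6, a ligand of ectoderm and of somite epithelium, was lowest at 0.30 ± 0.111 CPM per kb, and its samples overlapped those of Wnt2. The length used is the union of all annotated exons. With the longest transcript instead, the control order of the 10 ligands was the same.

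**Figure D1:**
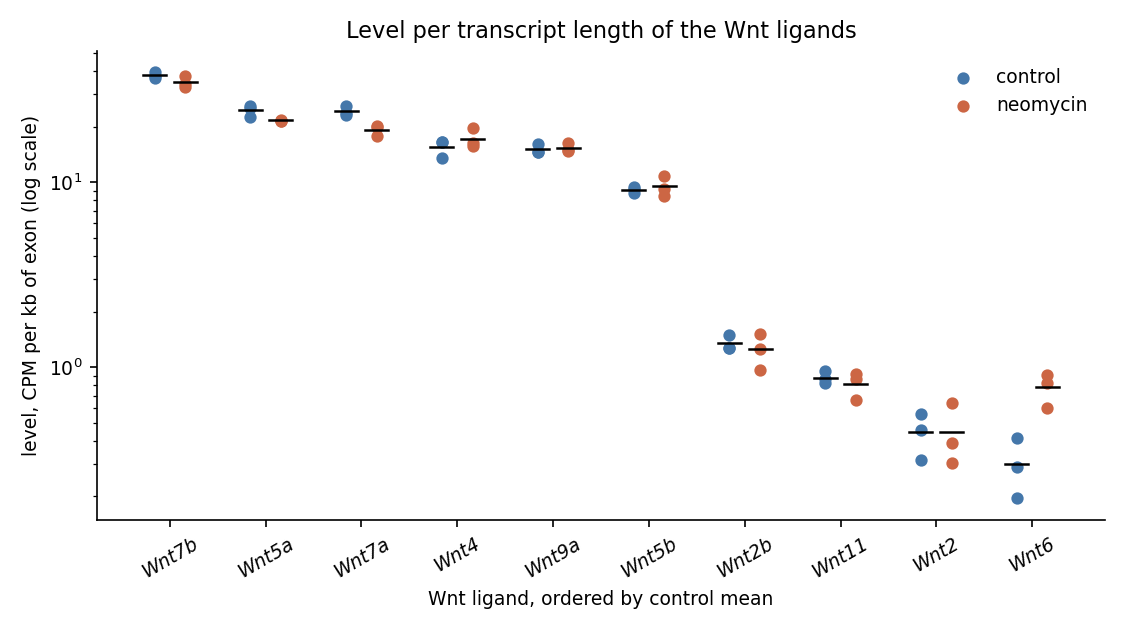
Level of each Wnt ligand in CPM per kb of exon on a log axis, with 1 point per sample (control blue, neomycin orange) and a black line at the group mean. The upper 6 ligands lie at or above 8.43 CPM per kb in every sample and the lower 4 at or below 1.52 CPM per kb, and Wnt6 is the ligand whose groups lie farthest apart.

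After neomycin the order kept the same 6 ligands at the top. Wnt7b remained first at 35.0 ± 2.58 CPM per kb and Wnt5a second at 21.7 ± 0.169 CPM per kb, now with no overlap with Wnt7a at 19.3 ± 1.29 CPM per kb. Wnt4 at 17.3 ± 2.12 CPM per kb differed from Wnt7a, and from Wnt9a at 15.4 ± 0.827 CPM per kb, by less than its own SD, which was the larger one in both pairs. Wnt6 moved from last to ninth place at 0.777 ± 0.158 CPM per kb, within the spread of Wnt11 at 0.814 ± 0.133 CPM per kb. Its samples still overlapped those of Wnt2 at 0.444 ± 0.178 CPM per kb, now the last.

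Neomycin was compared with control by edgeR's quasi-likelihood test over all 15988 genes, and a gene was called at an adjusted p under 0.05 and a fold change over 1.5. Of the 10 ligands, 1 was called higher, Wnt6, against 2.24% of all tested genes, and 0 were called lower, against 6.60% of all tested genes. The count of 0 was the same with DESeq2 and at an unadjusted p under 0.05 with the fold threshold kept. At an adjusted p under 0.05 with any fold, 1 ligand was higher (Wnt6) and 1 lower (Wnt7a), where the shares over all tested genes were 12.9% and 16.1%. The median log2 fold change was -0.06 over the ligands and 0.00 over all tested genes, and the median size of the change was 0.12 and 0.22. The counts of ligands were not tested against these shares.

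**Figure D2:**
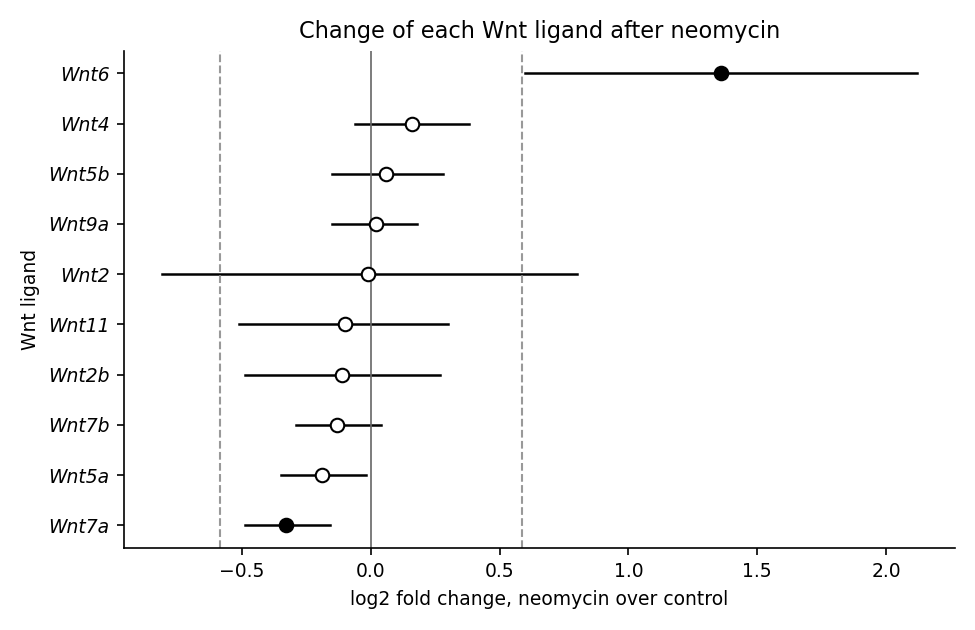
Log2 fold change of each Wnt ligand after neomycin (circle) with its 95% interval from the edgeR fit (line), filled where the adjusted p is under 0.05, with dashed lines at 1.5-fold in either direction. Wnt6 lies beyond the right dashed line at 1.36, Wnt7a is filled at -0.33 inside the dashed lines, and Wnt2 has the widest interval among the unfilled circles.

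Wnt6 was the 1 ligand that passed both thresholds. Its gene lies on chromosome 1 at 74771892 to 74785322 (mm10, plus strand), and 6.19 kb away lies Wnt10a. It had 0.913, 0.633 and 0.427 CPM in control, and 1.79, 2.00 and 1.32 CPM after neomycin, where the values of a group stand here and in what follows in the order of replicates 1, 2 and 3. All neomycin samples were above all control samples. The mean rose from 0.658 ± 0.244 CPM to 1.70 ± 0.347 CPM, a log2 fold change of 1.36 (SE 0.35, edgeR adjusted p = 0.0127) and a fold of 2.57 with a 95% interval of 1.52 to 4.34.

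These Wnt6 levels rest on few reads, 63, 33 and 24 in control and 95, 118 and 71 in the neomycin samples. The exact Poisson interval, which covers counting error only, was 0.702 to 1.17 CPM in control replicate 1 and 1.03 to 1.67 CPM in neomycin replicate 3, so these samples overlapped within counting error. Without neomycin replicate 2 the log2 fold change was 1.23 and the call was lost (edgeR adjusted p = 0.0629). Its neighbour Wnt10a had 0 to 15 reads in control and 5 to 22 after neomycin, and its log2 fold change of 0.86 had an SE of 0.86 (edgeR adjusted p = 0.478).

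Wnt7a fell after neomycin, but by less than 1.5-fold. The gene lies on chromosome 6 at 91363981 to 91411363 (minus strand). The control samples had 73.4, 75.7 and 81.9 CPM, and the neomycin samples 63.5, 63.8 and 56.5 CPM. The groups did not overlap, and neomycin replicate 3 was the lowest of all. The mean went from 77.0 ± 4.43 to 61.3 ± 4.10 CPM, a fall by 0.33 on the log2 scale (SE 0.08, edgeR adjusted p = 0.00754) and a fold of 0.796 with a 95% interval of 0.710 to 0.892. Between 3037 and 5063 reads per sample support these levels.

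Its paralogue Wnt7b, on chromosome 15 at 85535437 to 85582473 (minus strand), did not pass the test. It had 185, 181 and 194 CPM in control and 166, 162 and 186 CPM after neomycin. The groups overlapped through neomycin replicate 3, and the log2 fold change was -0.13 (SE 0.08, edgeR adjusted p = 0.234). The exons of AU022754 on the opposite strand overlap those of Wnt7b, and the strand setting of the counting is not given in the sources used here. AU022754 itself had 177 to 287 reads against 8839 to 12751 for Wnt7b. In the same way, exons of Gm2670 overlap those of Wnt5a, and exons of Gm8398 those of Wnt11. Both genes have no counts of their own here.

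Wnt5a, on chromosome 14 at 28504750 to 28527448 (plus strand), was lower in every neomycin sample but missed the threshold. It had 198, 203 and 177 CPM in control and 169, 169 and 171 CPM after neomycin. The groups did not overlap, with control replicate 3 nearest to the neomycin samples. The mean was 193 ± 13.9 CPM in control and 169 ± 1.32 CPM after neomycin, and the log2 fold change was -0.19 (SE 0.07, edgeR adjusted p = 0.0780). Removing the trend on exon length brought it to -0.05 (edgeR adjusted p = 0.604), and without control replicate 3 it was -0.23 (edgeR adjusted p = 0.0214).

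Together with Wnt6 and Wnt7a, this gave 3 of 10 ligands whose groups did not overlap, which was the case for 43.5% of all tested genes.

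Wnt5b, the paralogue of Wnt5a, stayed close to its control level. It had 23.3, 24.3 and 24.9 CPM in control and 22.4, 24.6 and 28.9 CPM after neomycin, with the lowest and the highest sample both in the neomycin group. The log2 fold change was 0.06 (SE 0.10, edgeR adjusted p = 0.668).

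Wnt4 had 56.5, 69.1 and 69.2 CPM in control and 65.7, 69.0 and 82.5 CPM after neomycin. The groups overlapped, with control replicate 1 lowest and neomycin replicate 3 highest, and the log2 fold change was 0.16 (SE 0.10, edgeR adjusted p = 0.264). Wnt9a had 54.1, 49.0 and 48.5 CPM in control and 49.1, 50.1 and 54.3 CPM after neomycin. Its groups lay on top of each other, at a fold of 1.01 with a 95% interval of 0.904 to 1.13 (edgeR adjusted p = 0.881).

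The scarce ligands other than Wnt6 did not pass the test. Wnt2b had 6.29, 5.35 and 5.36 CPM in control and 6.38, 5.30 and 4.08 CPM after neomycin, with a log2 fold change of -0.11 (SE 0.18, edgeR adjusted p = 0.675). Wnt11 had 3.38, 3.93 and 3.58 CPM in control and 2.75, 3.56 and 3.80 CPM after neomycin, with a log2 fold change of -0.10 (SE 0.19, edgeR adjusted p = 0.711). In both genes the lowest sample was a neomycin one and the groups overlapped. Wnt2 had 1.03, 0.709 and 1.26 CPM in control and 1.45, 0.678 and 0.875 CPM after neomycin, and both its lowest and its highest sample were in the neomycin group. Its fold of 0.996 had a 95% interval of 0.568 to 1.75, which leaves room for a change of 1.5-fold in either direction. The samples had 37 to 77 reads, and they spread beyond counting error within the neomycin group, with exact Poisson intervals of 1.14 to 1.81 CPM in replicate 1 and 0.484 to 0.923 CPM in replicate 2.

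**Figure D3:**
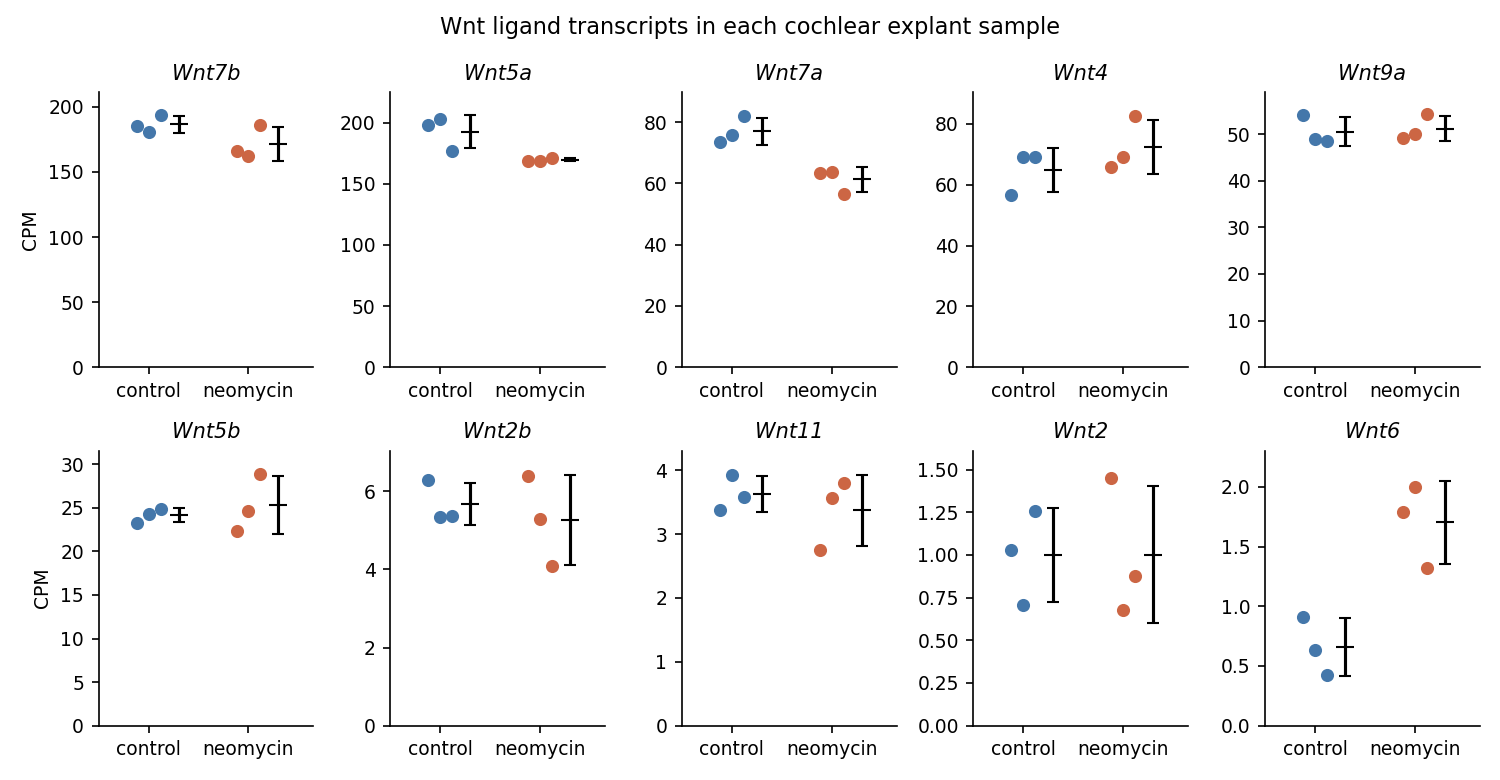
CPM of each Wnt ligand in the 3 control (blue) and 3 neomycin (orange) samples, replicates 1 to 3 from left to right, with the mean and SD as black marks and a separate axis from 0 for each gene. The colours separate in Wnt6, Wnt7a and Wnt5a and overlap in the other 7 ligands.

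For 8 of the 10 ligands, all but Wnt2 and Wnt6, the 95% interval of the fold change lay within 1.5-fold in either direction, and over all tested genes this share was 59.8%. The intervals ran from 0.700 at the lower end, in Wnt11, to 1.30 at the upper end, in Wnt4.

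The composition of the ligand pool was read as the share of each ligand in the summed CPM per kb of all 19 Wnt ligand genes. That sum was 130 ± 1.72 CPM per kb in control and 122 ± 5.26 CPM per kb after neomycin. Wnt7b made up 29.3% ± 0.852 of it in control and 28.7% ± 0.961 after neomycin, and Wnt5a 19.0% ± 1.53 and 17.8% ± 0.616. The groups overlapped for both of these ligands.

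The share of Wnt7a was 18.0%, 18.3% and 19.6% in control and 16.9%, 16.9% and 13.9% after neomycin. That of Wnt4 was 10.5%, 12.6% and 12.5% in control and 13.2%, 13.8% and 15.4% after neomycin. The groups did not overlap in either share, and the shares were not tested. The level of Wnt4 itself did not pass the test, and a share can rise where the other ligands of the pool fall. Wnt6 made up 0.231% ± 0.0888 in control and 0.642% ± 0.153 after neomycin. Without division by length, Wnt5a was the largest share in control, at 31.7% against 30.7% for Wnt7b. After neomycin these shares were 30.1% for Wnt5a and 30.4% for Wnt7b. The order differed between samples, as Wnt5a had the higher CPM in replicates 1 and 2 of both groups, and Wnt7b in replicate 3. The CPM after neomycin were 169, 169 and 171 for Wnt5a and 166, 162 and 186 for Wnt7b.

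Whether paralogues moved apart was asked with the log2 ratio of their counts within each sample, which does not depend on the scaling of libraries. For Wnt7a over Wnt7b the ratio was -1.33, -1.26 and -1.24 in control and -1.39, -1.34 and -1.71 after neomycin. All neomycin ratios lay below all control ratios. The means differed by -0.20, with an exact two-sided permutation p of 0.10, the smallest that 3 samples against 3 can give, and 0.30 after adjustment over the 3 pairs. Without neomycin replicate 3 the difference was -0.09.

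For Wnt5a over Wnt5b the mean log2 ratio was 2.99 ± 0.14 in control and 2.75 ± 0.18 after neomycin (exact permutation p = 0.200, adjusted 0.30). For Wnt2 over Wnt2b it was -2.53 ± 0.42 and -2.43 ± 0.45 (exact permutation p = 1.00). The groups overlapped in both pairs. Unlike library scaling, the trend on exon length need not cancel in such a ratio. With that trend removed, the log2 fold change was -0.05 for Wnt5a and -0.05 for Wnt5b. For Wnt7a and Wnt7b it was -0.40 and -0.09, and for Wnt2 and Wnt2b -0.14 and -0.11.

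**Figure D4:**
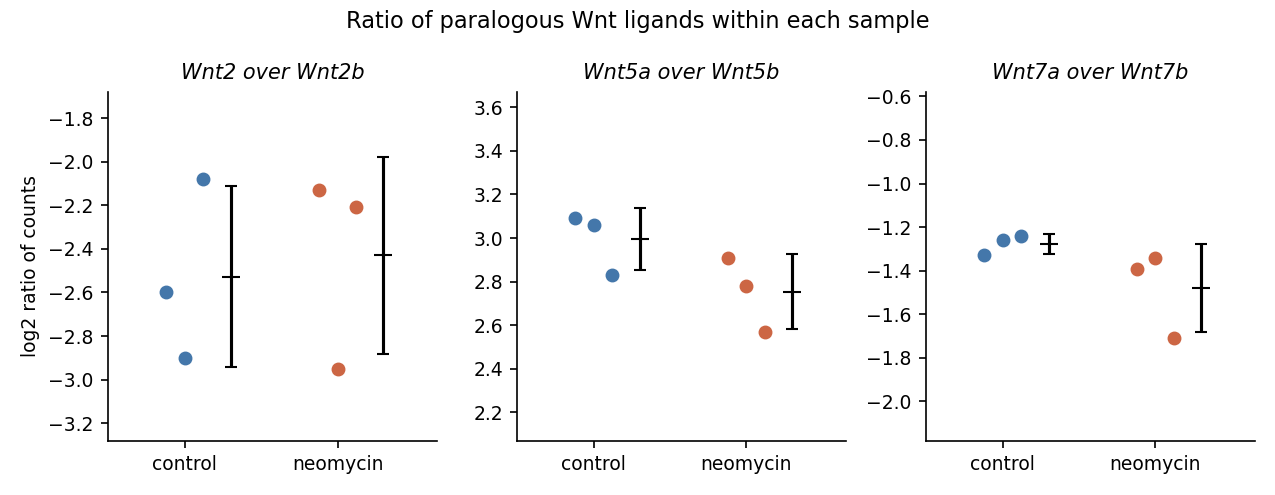
Log2 ratio of the counts of 3 pairs of paralogues in each control (blue) and neomycin (orange) sample, replicates 1 to 3 from left to right, with mean and SD in black. All 3 axes span the same range, and the groups separate only for Wnt7a over Wnt7b, where neomycin replicate 3 at -1.71 lies apart from the other samples.

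The other 9 ligands contributed little RNA. Wnt3 had 12 to 37 reads per sample, Wnt16 6 to 25, Wnt3a 1 to 19, Wnt8b and Wnt10b 0 to 8, and Wnt1 and Wnt9b 0 or 1. Wnt8a had 0 reads in all 6 samples, which allows up to 0.0575 CPM in the shallowest library, taking 3 counts as the limit. Of the 3 that were tested, Wnt3, Wnt10a and Wnt16, 0 were called, and 0 had an unadjusted p under 0.05 or were called by DESeq2. The low counts of Wnt3a stand beside those of its neighbour Wnt9a, 16.2 kb away on chromosome 11, which had 2555 to 3733 reads.

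The rest of the pathway was followed in 8 lists with 93 genes, of which 89 were tested. Of these 1 was called higher and 7 lower, 8.99% in all, where the shares over all tested genes were 2.24% higher and 6.60% lower. At an adjusted p under 0.05 with any fold, 5 were higher and 25 lower, where the shares over all tested genes were 12.9% and 16.1%. The median log2 fold change was -0.05. These lists were not read with the trend on exon length removed, a setting in which 1181 genes in place of 1413 were called. The part of that trend in their values was not tested.

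Genes that make or remove Wnt proteins were in a list of 10, of which 0 were called (4 had an unadjusted p under 0.05 and DESeq2 called 0), with 1 higher and 1 lower at an adjusted p under 0.05. Among 10 Frizzled receptors, 4 were lower and 0 higher at an adjusted p under 0.05 with any fold, and the summed level was 700 to 735 CPM in control and 644 to 682 CPM after neomycin. Past 1.5-fold was Fzd4, known as the receptor of norrin in retinal and cochlear vessels, which fell from 39.9 ± 6.42 to 19.0 ± 4.81 CPM (log2 fold change -1.07, edgeR adjusted p = 0.000586). The endothelium markers, 7 of 9 lower, moved with it, although their summed level of 284 to 318 CPM in control and 268 to 319 CPM after neomycin overlapped, and a link was not tested.

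Among 12 co-receptors, 4 were lower and 0 higher at an adjusted p under 0.05 with any fold, with a median log2 fold change of -0.26, and their summed level was 951 to 1024 CPM in control and 898 to 924 CPM after neomycin. Of the 4, 2 were past 1.5-fold. Ror1, a receptor tyrosine kinase that binds Wnt5a, went from 5.48 ± 1.18 to 2.73 ± 0.306 CPM (log2 fold change -1.01, edgeR adjusted p = 0.00300), and Lrp5, a co-receptor of β-catenin signaling, from 81.7 ± 6.03 to 51.8 ± 2.82 CPM (log2 fold change -0.66, edgeR adjusted p = 0.000120). Of 8 R-spondins and LGR receptors, which keep Frizzled proteins at the surface, 2 were lower and 0 higher at an adjusted p under 0.05, and Lgr6 was past 1.5-fold, from 16.2 ± 3.80 to 7.36 ± 0.539 CPM (log2 fold change -1.14, edgeR adjusted p = 0.000365). Of 12 secreted antagonists, 3 were higher and 1 lower at an adjusted p under 0.05 with any fold, while their summed level was 1664 to 1785 CPM in control and 1444 to 1625 CPM after neomycin. The gene also past 1.5-fold was Sfrp4, a soluble protein with a Frizzled-type Wnt-binding domain, which went from 16.6 ± 2.23 to 25.0 ± 5.57 CPM (log2 fold change 0.59, edgeR adjusted p = 0.0106).

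Inside the receiving cell, 4 of 16 genes of the β-catenin core were lower and 1 higher at an adjusted p under 0.05 with any fold, and their summed level was 2036 to 2116 CPM in control and 1954 to 2027 CPM after neomycin. Of the lower genes, 2 were past 1.5-fold. Dvl3, a Dishevelled protein that relays the signal from Frizzled, went from 22.0 ± 5.71 to 11.8 ± 0.433 CPM (log2 fold change -0.89, edgeR adjusted p = 0.00166). Bcl9l, a co-activator of β-catenin, went from 42.7 ± 9.01 to 24.3 ± 2.66 CPM (log2 fold change -0.82, edgeR adjusted p = 0.00110). Of 10 feedback targets of β-catenin, 0 were called with edgeR or DESeq2, but 3 were lower and 0 higher at an adjusted p under 0.05 (3 at an unadjusted p under 0.05). Their median log2 fold change was 0.00, and their summed level was 653 to 728 CPM in control and 592 to 626 CPM after neomycin. Of 11 planar polarity genes, 6 were lower at an adjusted p under 0.05 with any fold and 0 higher, with a median log2 fold change of -0.37. Their summed level was 344 to 419 CPM in control and 294 to 343 CPM after neomycin. Of the 6, 1 was also past 1.5-fold: Celsr3, a giant cadherin known from axon guidance, which fell from 4.29 ± 0.390 to 1.58 ± 0.410 CPM (log2 fold change -1.44, edgeR adjusted p = 0.000808). Of 10 neuron markers, 4 were called lower (3 with DESeq2), and 1 was higher at an adjusted p under 0.05 with any fold. Their summed level was 165 to 256 CPM in control and 163 to 167 CPM after neomycin, and the groups overlapped. A link to Celsr3 was not tested.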

How the data were processed

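The authors called bases with CASAVA 1.8, trimmed reads with Trimmomatic 0.23, aligned them to mm10 with HISAT2 and counted them per gene with HTSeq. The strand setting and the treatment of multi-mapping reads are not given in the sources used here. The deposited values are raw counts for each gene symbol.

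From these counts, libraries were scaled with TMM and filtered with filterByExpr, and 3 neomycin samples were compared with 3 control samples by the quasi-likelihood test of edgeR 4.0.16 (R 4.3.3) with Benjamini-Hochberg adjustment over 15988 genes. The study used DESeq2, run here (1.42.0) as an alternative. CPM are counts scaled to a TMM-adjusted library size of 1000000. The SE of a log2 fold change is its size divided by the square root of F, and its 95% interval uses the t quantile of the fit. Exon lengths and positions came from GENCODE M21 (mm10), which gave a length for 99.3% of tested genes. Paralogue ratios used a pseudocount of 0.5. Python 3.11.15, scipy 1.17.1 and matplotlib 3.10.9 did the rest.

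The members and the gene lists were chosen with earlier results of these data known. All 10 ligands are named, and from each list of the pathway the called genes with the largest rise and the largest fall. Lrp5 and Bcl9l were named after their values were seen. Alternatives were DESeq2, other scalings and filters, no fold threshold, removal of the trend on exon length (lowess, span 0.3), the replicate number as a block, and each sample left out. Tested on simulated data with 200 genes of 15988 changed by 2-fold, edgeR recovered 162 with 8 false calls. The changed genes were drawn over all levels, in equal numbers up and down and with no trend on exon length. Recovery of smaller changes, or among scarce genes alone, was not measured.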

Additional observations from a re-analysis of the deposited data

How the results depend on the processing

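Without the fold threshold, 4629 genes in place of 1413 and 2 ligands in place of 1 were called. Leaving out each sample in turn gave 0 to 1 called ligands, 0 without neomycin replicate 2, and 1037 to 1672 called genes. Under the other alternatives 1 ligand was called. Wnt6 ranged from 1.14 to 1.69 in log2 fold change over 14 alternatives, past both thresholds in 13, with edgeR or DESeq2 adjusted p between 0.00122 and 0.0629. Wnt7a ranged from -0.40 to -0.27, at an adjusted p under 0.05 in all 14 and past 1.5-fold in none. Wnt5a passed an adjusted p of 0.05 in 3 of the 14, at -0.26 with scaling by total counts, -0.23 without control replicate 3 and -0.18 with the replicate block. The sign of the log2 fold change turned under 6 of 14 alternatives for Wnt2, 4 each for Wnt5b and Wnt9a, and 1 each for Wnt2b and Wnt11, none with an adjusted p under 0.05.

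Samples of the same number correlated in their deviations at 0.165, 0.026 and 0.095, and samples of different numbers at -0.129 to 0.032. These values do not settle whether the numbers mark pairs, and the main test did not pair them. The replicate block called 1465 genes and 1 ligand. Scaling by total counts moved the median log2 fold change of all genes to -0.07. Division by the longest transcript put the share of Wnt7b in the ligand pool at 36.3% in control and 35.6% after neomycin. Wnt2 and Wnt6 rest on 24 to 118 reads per sample, and within a group both also spread beyond counting error. The causes of these shifts were not tested.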
